A study of Homo sapiens with 18 samples.

Results

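Small nucleolar RNA host genes are transcription units that carry small nucleolar RNAs (snoRNAs) in their introns. They were taken here as the GENCODE 29 genes with an SNHG symbol followed by a number, together with GAS5, ZFAS1 and EPB41L4A-AS1. The rule gave 27 symbols and 28 annotated genes, since SNHG28 is annotated as 2 genes, out of 57865 genes in the expression table. Of the 28, 26 were above 0 in at least 1 library and 2, SNHG18 and the lincRNA copy of SNHG28, were listed at 0 in all of them.

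Large RNA was sequenced from HEK293T, a standard cell line of human embryonic kidney origin, and from the extracellular vesicles (EVs) shed by it. There were 18 libraries in 6 groups of 3 biological replicates: EVs and cells of wild type, of 1 ATG7-/- clone (F2) and of 1 ATG12-/- clone (D9). All groups, wild type included, had been without serum for 24 h. ATG7 and ATG12 belong to the machinery that attaches LC3 to membranes, and the comparisons ask whether RNA in EVs differs without it. Since each knockout is a single clone, the effects of the knockout and of the clone cannot be told apart. Values are in TPM, a share of each library scaled by transcript length, summed per gene. This unit holds no sequencing depth, which is therefore unknown.

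After transcription and splicing, the introns of a host gene are trimmed to release snoRNAs, which guide ribose methylation (box C/D snoRNAs) or pseudouridylation (box H/ACA snoRNAs) of ribosomal RNA. Relatives that stay in Cajal bodies (scaRNAs) guide the same changes in spliceosomal RNAs. The spliced exons are left as a cytoplasmic RNA with little coding capacity, and several of these RNAs, GAS5 among them, begin with a run of pyrimidines at the start site, are loaded with ribosomes and are removed by nonsense-mediated decay.

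Start sites from RefSeq (GRCh38.p14) were found for 23 of the 27 symbols, and a run of at least 7 letters C or T, read on the gene's strand and beginning within 10 bases of the start, was present in 10 of the 23. The same run was present at 17.7% of the 35116 promoters in that table. The median length of the longest such run was 6 letters for the host genes and 4 for all promoters. At the start listed there for GAS5, the longest such run was 3 letters. The bases around that start, chr1:173869016-173869075 on the minus strand, lie outside the GENCODE 29 gene, whose first base is at 173868882. A run at the first base of the GENCODE 29 gene was not tested. Windows of 30 bases on each side of the start are shown for members that the EV-to-cell comparison turned on and for 2 more with a clear run, ZFAS1 and SNHG4, with that run in capitals. They lie at chr17:76557734-76557793 (SNHG16, plus strand), chr11:62855856-62855915 (SNHG1, minus), chr20:38435299-38435358 (SNHG17, minus), chr20:49278612-49278671 (ZFAS1, plus), chr5:139274071-139274130 (SNHG4, plus), chr1:28581844-28581903 (SNHG12, minus), chr17:77088613-77088672 (SNHG20, plus) and chr14:95534843-95534902 (SNHG10, minus).
SNHG16: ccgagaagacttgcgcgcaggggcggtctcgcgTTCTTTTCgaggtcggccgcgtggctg
SNHG1: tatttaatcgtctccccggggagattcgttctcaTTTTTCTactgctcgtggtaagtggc
SNHG17: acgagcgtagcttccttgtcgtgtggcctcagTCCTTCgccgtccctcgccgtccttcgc
ZFAS1: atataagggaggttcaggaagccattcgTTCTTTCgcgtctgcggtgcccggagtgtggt
SNHG4: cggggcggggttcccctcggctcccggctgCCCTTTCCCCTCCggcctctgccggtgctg
SNHG12: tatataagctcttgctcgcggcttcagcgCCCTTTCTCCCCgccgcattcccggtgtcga
SNHG20: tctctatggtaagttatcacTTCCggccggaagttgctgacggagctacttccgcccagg
SNHG10: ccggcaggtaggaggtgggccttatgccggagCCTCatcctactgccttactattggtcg
The runs of SNHG4 and SNHG12 were 13 and 12 letters long, and those of SNHG20 and SNHG10 were 4 letters long. Long runs were therefore seen in members with EV levels above (SNHG16), near (SNHG4) and below (SNHG12) the cell levels. The windows of ZFAS1, SNHG12 and SNHG20 lie inside their GENCODE 29 genes, whose first bases are at 49278178, 28583132 and 77086716. Runs at those bases were not tested. SNHG25 is shown as its spliced transcript, SNHG25-201 in GENCODE 29 (2 exons between chr17:64145970-64146309, plus strand, 106 nt), because this short RNA held all of the gene's TPM, with the C and T letters at its start in capitals.
SNHG25-201: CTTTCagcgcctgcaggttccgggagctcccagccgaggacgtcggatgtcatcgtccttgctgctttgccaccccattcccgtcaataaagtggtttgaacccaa

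The summed level of the host genes was 373 ± 142 TPM in EVs (SD, n = 9; 266 at the lowest, 355 at the median and 731 at the highest) and 254 ± 82.1 TPM in cells (SD, n = 9; 187, 207 and 388). The highest EV sum came from ATG12-/- EV replicate 2, without which the EV mean was 328 ± 48.6 TPM (SD, n = 8). By group, the sum was 365 ± 12.3 TPM in wild-type EVs, 305 ± 57.9 TPM in ATG7-/- EVs and 449 ± 247 TPM in ATG12-/- EVs (SD, n = 3 each). In cells it was 319 ± 109, 195 ± 9.76 and 248 ± 59.6 TPM in the same order. Of these cell means, SNHG25 alone held 113 ± 98.9, 0 and 60.8 ± 57.8 TPM (SD, n = 3 each). It held 57.8 of the 254 TPM over all cells and was listed at 0 in 5 of the 9 cell libraries. An EV library had 13 to 17 members at 1 TPM or more, of 13255 to 14716 such genes in all. A cell library had 14 to 19 such members, of 18464 to 20509 genes. In bulk libraries, fewer cells or vesicles with an RNA and less of it in each cannot be told apart.

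Among checks of the labels, ATG7 RNA was at 11.2 to 15.6 TPM in ATG7-/- EVs and 13.3 to 19.4 TPM in wild-type EVs, and the cell groups overlapped as well (8.06 to 12.9 against 8.14 to 13.1 TPM). ATG12 RNA was at 0 to 0.858 TPM in ATG12-/- EVs and 0.844 to 22.6 TPM in wild-type EVs, and at 5.18 to 9.18 against 7.61 to 13.5 TPM in cells. These RNA levels overlapped between genotypes and do not check the labels, so genotypes are as labelled. The HEK293T-expressed markers KRT8 and VIM were present in all libraries (KRT8 at 138 to 387 TPM in EVs and 62.9 to 162 TPM in cells), whereas the T cell, red cell and liver genes CD3E, HBB and ALB were at 0 throughout. NEFM was at 52.9 to 63.5 TPM in wild-type EVs, 2.15 to 20.6 TPM in ATG7-/- EVs and 27.1 to 34.7 TPM in ATG12-/- EVs. KRT18 reached 9.42 TPM and was listed at 0 in 2 EV and 2 cell libraries. PAX2 reached 3.44 TPM and was listed at 0 in 5 EV libraries and 1 cell library. These markers' part in the host gene values was not tested. Of the markers for cells not in the culture, PTPRC reached 5.79 TPM, HBA1 5.85 TPM, PECAM1 1.36 TPM and COL1A1 19.6 TPM. COL1A1 was above 0 in every library, with means of 9.32 TPM in EVs and 7.23 TPM in cells. PTPRC and PECAM1 were above 0 in every cell library.

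In EVs against cells over the 3 genotypes, 3 host genes were higher in EVs (SNHG16, SNHG1 and SNHG17) and 5 were lower (SNHG20, SNHG12, SNHG10, SNHG6 and SNHG25). The test was limma on log2(TPM + 1) of scaled libraries, and called means a Benjamini-Hochberg adjusted p under 0.05 over all genes tested. The 8 called members were 38.1% of the 21 that passed the filter of 1 TPM in 3 libraries, beside 44.1% of all 24647 genes tested. Called higher were 14.3% of the members and 7.66% of all genes, and called lower were 23.8% and 36.4%. Of the 21, 15 had passed the filter in EVs and in cells separately, with 3 higher and 2 lower, beside 10.7% higher and 30% lower among all genes of that kind. The 3 members that passed in cells but not in EVs (SNHG10, SNHG6 and SNHG25) were all called lower; passing through the cell libraries alone fixes that direction, so they support no count.

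The median log2 fold change, EVs minus cells, was 0.26 over the 21 members and -0.61 over all genes (-0.47 without scaling between libraries). The members' median does not depend on the sizes fitted for SNHG6 and SNHG25, which lie on its lower side. The fold change was above 0 for 12 of the 21 and for 29% of all genes. These medians and shares include genes that passed the filter through 1 compartment alone, which fixes their direction. Of the 24647 genes, 15893 had passed in EVs and in cells separately, and neither figure was computed for those. At an unadjusted p under 0.05 there were 9 members (42.9%), beside 52.7% of all genes. With values as deposited, 5 members were called higher and 4 lower: SNHG14 and ZFAS1 joined the higher ones and SNHG12 left the lower ones. The count dropped to 5 when any 1 of wild-type EV replicate 3, ATG12-/- EV replicate 2, wild-type cell replicates 2 and 3, ATG7-/- cell replicate 1 or ATG12-/- cell replicate 1 was left out.

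**Figure D1:**
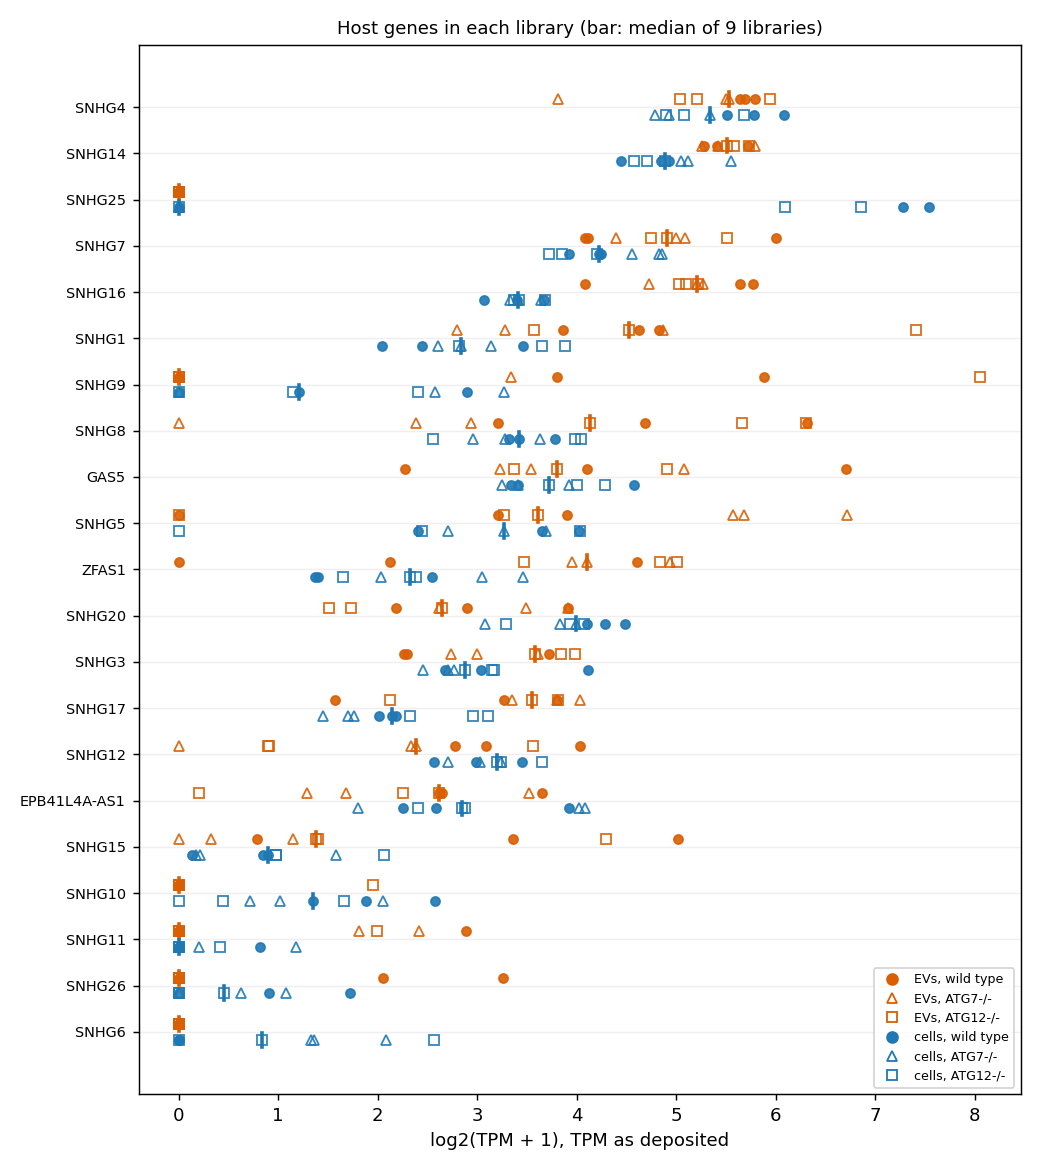
Level of each of the 21 host genes that passed the filter, as log2(TPM + 1) on the horizontal axis, with 1 marker per library (orange for EVs, blue for cells, shape by genotype) and a bar at the median of 9 libraries. SNHG16 is the member whose EV and cell libraries do not overlap, and SNHG25 and SNHG6 sit at 0 in all 9 EV libraries.

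**Figure D2:**
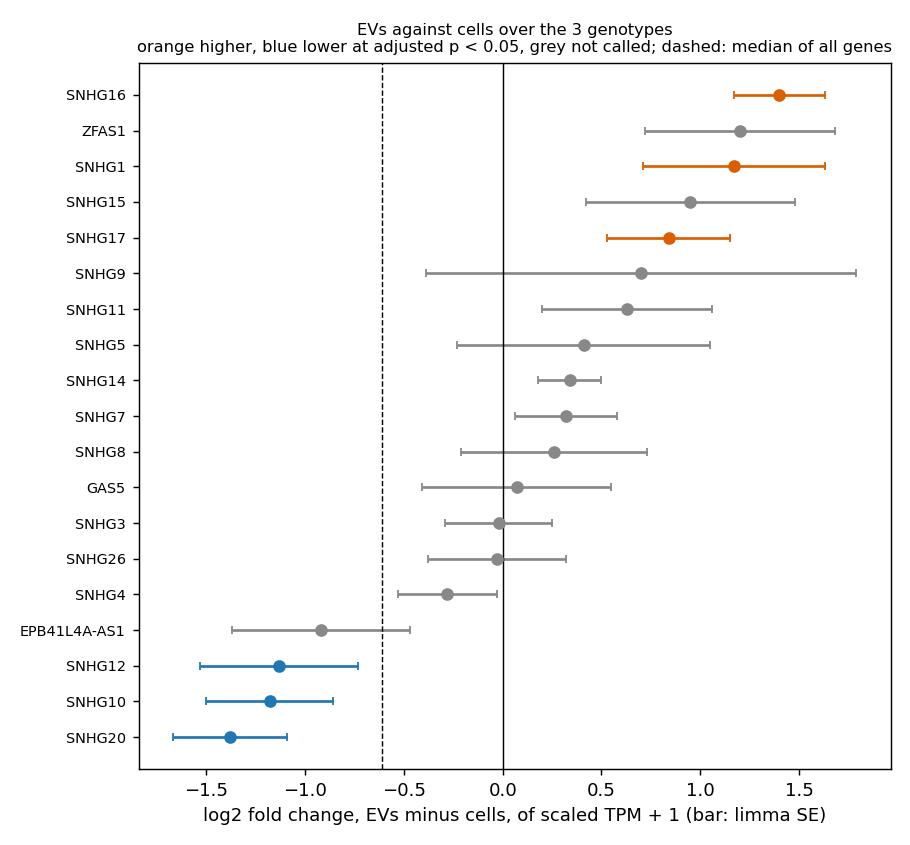
Log2 fold change, EVs minus cells, with limma's standard error for 19 host genes; SNHG25 and SNHG6, listed at 0 in all EV libraries, have no fold and are not drawn. SNHG16 has the largest estimate (1.40) and SNHG20 the lowest (-1.38), and the dashed line marks the median of all genes at -0.61.

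Among hosts of box C/D snoRNAs, SNHG16 separated the compartments most clearly. It carries SNORD1A, SNORD1B and SNORD1C in its introns. In EVs it was at 53.4, 48.8 and 16.0 TPM in wild type, 35.9, 37.5 and 25.4 TPM in ATG7-/- and 33.2, 36.3 and 31.5 TPM in ATG12-/-. In cells it was at 7.36, 11.7 and 9.52 TPM in wild type, 9.65, 9.07 and 11.5 TPM in ATG7-/- and 9.35, 9.67 and 11.8 TPM in ATG12-/-. Every EV library lay above every cell library, which 1 of 21 members (4.76%) and 5.58% of all genes showed in either direction. The mean was 35.3 ± 11.2 TPM in EVs and 9.96 ± 1.46 TPM in cells (SD, n = 9 each), a ratio of 3.55. The log2 fold change was 1.40 (SE 0.23, limma adjusted p = 0.000274), and it remained called in all 27 alternatives, between 1.31 and 1.67.

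SNHG1, the host of SNORD22, SNORD25 and other box C/D snoRNAs, was also higher in EVs, with 1 library far from the rest. Its EV values were 23.6, 13.5 and 27.3 TPM in wild type, 28.2, 8.72 and 5.93 TPM in ATG7-/- and 22.0, 169 and 10.9 TPM in ATG12-/-. Its cell values were 10.0, 3.11 and 4.43 TPM in wild type, 6.13, 7.83 and 5.09 TPM in ATG7-/- and 6.04, 11.6 and 13.7 TPM in ATG12-/-. EV and cell libraries overlapped, and the value of 169 TPM in ATG12-/- EV replicate 2 came mainly from 1 transcript of 240 nt, SNHG1-210, at 134 TPM there and 0 in the other 17 libraries. The log2 fold change was 1.17 (SE 0.46, limma adjusted p = 0.0492), and without that library it was 0.81 (adjusted p = 0.0634). The call also held when wild-type EV replicate 2, ATG7-/- EV replicate 3, ATG12-/- EV replicates 1 and 3 or wild-type cell replicate 1 was left out, and was lost without any 1 of the other libraries (adjusted p 0.0551 to 0.0949). It was lost with no filter on low values as well (1.17, adjusted p = 0.0677).

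SNHG14 (chr15:24978583-25419462 in GENCODE 29), the long imprinted transcript opposite UBE3A that carries the SNORD115 and SNORD116 clusters, had steady EV levels. They were 41.6, 37.9 and 51.6 TPM in wild type, 41.9, 37.2 and 54.2 TPM in ATG7-/- and 46.9, 44.4 and 52.2 TPM in ATG12-/-. In cells the values were 29.4, 20.7 and 27.8 TPM in wild type, 32.1, 33.7 and 45.7 TPM in ATG7-/- and 28.6, 25.1 and 22.9 TPM in ATG12-/-. EVs and cells did not overlap in wild type or in ATG12-/-, and did in ATG7-/-. The log2 fold change of 0.34 (SE 0.16) was not called (limma adjusted p = 0.0951). It was called without scaling (0.62, adjusted p = 0.00691) and without transcripts that hold a snoRNA (0.47, adjusted p = 0.0329).

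SNHG25, host of SNORD104 and SNORA50C, was listed at 0 in all 9 EV libraries. Cell libraries were listed at 154, 185 and 0 TPM in wild type, at 0 in all 3 ATG7-/- libraries and at 67.3, 115 and 0 TPM in ATG12-/-. It was thus above 0 in 4 of 9 cell libraries. Its adjusted p was 0.0207 with limma, and 0.0656 with sample weights and no trend. SNHG6, host of SNORD87, was listed at 0 in all EV libraries and in all wild-type cell libraries. It was at 1.56, 1.51 and 3.24 TPM in ATG7-/- cells and at 0.783, 4.93 and 0 TPM in ATG12-/- cells (limma adjusted p = 0.0099, and 0.0542 without transcripts that hold a snoRNA). Listed zeros can be failed estimates, so no fold is given for either gene.

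GAS5, known for accumulating in growth-arrested cells, was at 16.2, 103 and 3.83 TPM in wild-type EVs, 8.36, 10.6 and 32.7 TPM in ATG7-/- EVs and 9.3, 12.9 and 28.9 TPM in ATG12-/- EVs. Its cell values were 9.62, 22.8 and 9.13 TPM in wild type, 14.2, 9.64 and 8.48 TPM in ATG7-/- and 12.2, 15 and 18.5 TPM in ATG12-/-. The spread in EVs covered the whole range of the cells, and the log2 fold change was 0.07 (SE 0.48, limma adjusted p = 0.914). Without wild-type EV replicate 2, which held the 103 TPM, the log2 fold change was -0.30 (adjusted p = 0.522). Of the 103 TPM, 89.4 was GAS5-208 (242 nt), listed at 0 in every other library. SNHG5, host of SNORD50B, was at 13.9, 0 and 8.26 TPM in wild-type EVs, 50.1, 46.4 and 104 TPM in ATG7-/- EVs and 11.2, 0 and 8.61 TPM in ATG12-/- EVs. Cell levels of SNHG5 were 15.2, 11.6 and 4.29 TPM in wild type, 8.61, 5.51 and 11.9 TPM in ATG7-/- and 4.45, 15.4 and 0 TPM in ATG12-/-. Its high values were therefore those of the ATG7-/- EVs, and over the genotypes the log2 fold change was 0.41 (SE 0.64, adjusted p = 0.63). Those high values came mainly from different transcripts by replicate. SNHG5-222 (257 nt) was at 43.8 and 84.2 TPM in replicates 1 and 3, and SNHG5-202 (430 nt) at 41.2 TPM in replicate 2. Each was listed at 0 in every other EV library. ZFAS1, an antisense RNA of ZNFX1 that hosts SNORD12, SNORD12B and SNORD12C, ranged from 0 to 31.1 TPM in EVs (median 16.2) and from 1.58 to 10.0 TPM in cells (median 4.02), with a log2 fold change of 1.20 (SE 0.48, adjusted p = 0.0552).

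Among hosts of box H/ACA snoRNAs, SNHG17 was higher and SNHG12 lower in EVs. SNHG17, host of the SNORA71 snoRNAs, was at 1.98, 8.67 and 12.9 TPM in wild-type EVs, 15.4, 9.19 and 12.9 TPM in ATG7-/- EVs and 3.36, 13.0 and 10.7 TPM in ATG12-/- EVs. Cells had 3.04, 3.53 and 3.42 TPM in wild type, 1.74, 2.25 and 2.38 TPM in ATG7-/- and 4.01, 6.77 and 7.63 TPM in ATG12-/-. The compartments separated in ATG7-/- and overlapped in the other genotypes, through wild-type EV replicate 1 and ATG12-/- EV replicate 1. The log2 fold change was 0.84 (SE 0.31, limma adjusted p = 0.0386). The call held without either of those libraries, without ATG7-/- EV replicate 2 or without ATG12-/- cell replicate 3, and was lost without any 1 of the other libraries (adjusted p 0.0527 to 0.077) and at a pseudocount of 0.1 (0.96, adjusted p = 0.0501).

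SNHG12, host of SNORA16A, SNORA44, SNORA61 and the box C/D SNORD99, was at 15.4, 5.85 and 7.5 TPM in wild-type EVs, 4.23, 4.06 and 0 TPM in ATG7-/- EVs and 0.858, 0.873 and 10.8 TPM in ATG12-/- EVs. Cell values were 4.92, 6.94 and 9.93 TPM in wild type, 8.46, 5.53 and 7.18 TPM in ATG7-/- and 11.6, 8.43 and 8.21 TPM in ATG12-/-. Wild-type EVs and cells overlapped, and 5 of the 6 knockout EV libraries lay below every cell library. Over the genotypes the log2 fold change was -1.13 (SE 0.40, limma adjusted p = 0.0338). It was -0.33 (adjusted p = 0.601) without transcripts that hold a snoRNA, -1.71 (adjusted p = 0.0521) with a pseudocount of 0.1, and -0.90 (adjusted p = 0.098) without scaling. The call was also lost (adjusted p 0.0505 to 0.0691) without any 1 of wild-type EV replicates 2 and 3, ATG7-/- EV replicate 3, ATG12-/- EV replicates 1 and 2, wild-type cell replicates 2 and 3, ATG7-/- cell replicate 1 and ATG12-/- cell replicate 1.

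SNHG4, host of SNORA74A, had the highest mean level over all libraries. In EVs it was at 54.3, 49.0 and 50.8 TPM in wild type, 13.0, 45.3 and 44.1 TPM in ATG7-/- and 31.8, 35.9 and 60.4 TPM in ATG12-/-. Its cell values were 53.9, 66.9 and 44.5 TPM in wild type, 29.4, 39.6 and 26.6 TPM in ATG7-/- and 28.8, 32.8 and 50.1 TPM in ATG12-/-. The compartments overlapped in every genotype, with a log2 fold change of -0.28 (SE 0.25, limma adjusted p = 0.386) that was 0.01 without scaling. SNHG7, host of SNORA17A and SNORA17B, was at 16.3, 63.2 and 15.9 TPM in wild-type EVs, 20.0, 33.1 and 31.0 TPM in ATG7-/- EVs and 44.4, 25.8 and 28.9 TPM in ATG12-/- EVs. In cells it was at 18, 14.2 and 17.7 TPM in wild type, 27.4, 28.0 and 22.5 TPM in ATG7-/- and 13.4, 12.2 and 17.4 TPM in ATG12-/-, and the log2 fold change was 0.32 (SE 0.26, adjusted p = 0.329). EVs and cells of SNHG7 separated in ATG12-/- and overlapped in wild type and ATG7-/-.

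SNHG8, host of SNORA24, was at 24.8, 8.24 and 78.7 TPM in wild-type EVs, 6.64, 4.22 and 0 TPM in ATG7-/- EVs and 16.6, 78 and 49.4 TPM in ATG12-/- EVs. Its cell levels were 9.69, 9.01 and 12.7 TPM in wild type, 11.4, 8.72 and 6.75 TPM in ATG7-/- and 15.5, 14.8 and 4.87 TPM in ATG12-/-. EVs lay above cells in ATG12-/- and below cells in ATG7-/-, and the log2 fold change over the genotypes was 0.26 (SE 0.47, limma adjusted p = 0.68), with a negative sign at a pseudocount of 0.1 (-0.08) and without transcripts that hold a snoRNA (-0.20). SNHG9, host of SNORA78, was at 58.1, 12.9 and 0 TPM in wild-type EVs, 0, 0 and 9.11 TPM in ATG7-/- EVs and 0, 265 and 0 TPM in ATG12-/- EVs. Cells had 6.43, 1.31 and 0 TPM in wild type, 4.96, 8.63 and 0 TPM in ATG7-/- and 4.31, 1.22 and 0 TPM in ATG12-/-. The 265 TPM in ATG12-/- EV replicate 2 came from SNHG9-201 (275 nt), listed at 0 in every other library, and without that replicate the log2 fold change turned from 0.70 (adjusted p = 0.629) to -0.17 (adjusted p = 0.883). SNHG3, host of SNORA73A and SNORA73B, had a log2 fold change of -0.02 (SE 0.27, adjusted p = 0.95).

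Of the 4 members that carry a scaRNA, SNHG20 and SNHG10 passed the filter, whereas SNHG22 and SNHG21 did not. SNHG20, which carries SCARNA16, was lower in EVs, at 14.1, 6.43 and 3.55 TPM in wild-type EVs, 10.2, 5.11 and 14.1 TPM in ATG7-/- EVs and 2.32, 1.84 and 5.27 TPM in ATG12-/- EVs. Cell levels were 21.4, 16.2 and 18.5 TPM in wild type, 13.2, 14.9 and 7.47 TPM in ATG7-/- and 15.8, 8.77 and 14.3 TPM in ATG12-/-. EVs were below cells without overlap in wild type and in ATG12-/-, and overlapped in ATG7-/-. The cell mean was 14.5 ± 4.38 TPM and the EV mean 6.99 ± 4.72 TPM (SD, n = 9 each), a ratio of 2.07. The log2 fold change was -1.38 (SE 0.29, limma adjusted p = 0.00143), and all 27 alternatives kept the call, between -1.57 and -1.13. SNHG10, which carries SCARNA13, was at 0 in 8 EV libraries and at 2.87 TPM in ATG12-/- EV replicate 3. Among cells it was at 4.96, 1.54 and 2.68 TPM in wild type, 3.15, 0.64 and 1.02 TPM in ATG7-/- and 2.17, 0.365 and 0 TPM in ATG12-/-. It passed the filter through the cell libraries alone, which fixes the direction of its log2 fold change (-1.18, SE 0.32, adjusted p = 0.00774).

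The other members that passed the filter were low or scattered. EPB41L4A-AS1, host of SNORA13, ranged from 0.154 to 11.6 TPM in EVs and from 2.48 to 15.9 TPM in cells, with a log2 fold change of -0.92 (SE 0.45, limma adjusted p = 0.108). SNHG15, host of SNORA9, ranged from 0 to 31.3 TPM in EVs and from 0.0996 to 3.18 TPM in cells (0.95, SE 0.53, adjusted p = 0.156). SNHG11 and SNHG26 reached 6.39 and 8.57 TPM in EVs and 1.26 and 2.29 TPM in cells (adjusted p 0.238 and 0.95). The members that did not pass and were above 0 (SNHG22, the protein-coding copy of SNHG28, SNHG27, SNHG19 and SNHG21) were listed at 0 in all EV libraries and reached 5.02, 5.24, 1.76, 2.87 and 2.32 TPM in cells.

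Of 19 members with a leading transcript in both compartments, 6 (31.6%) had the same one and 13 another, beside 72% with the same one among 22369 genes, those with a single transcript included. The number of transcripts and the level of a gene were not matched in that comparison, and some leads, such as SNHG9-201, rest on 1 library. Fitted per transcript, an analysis added after the gene values had been seen, 16 of 62 host gene transcripts (25.8%) were called, beside 31.2% of all 49476. Of these, 6 (9.68%) were higher in EVs and 10 (16.1%) lower, beside 5.23% and 26% of all transcripts. Passing the filter through 1 compartment alone fixes the direction, as it did for 2 of the 6 and 7 of the 10. Among the 18 host gene transcripts that passed in EVs and in cells separately, 4 (22.2%) were higher and 3 (16.7%) lower, beside 7.48% and 24.5% of all transcripts of that kind. Transcripts whose annotated exons hold a snoRNA, 44 of 238 in the table, made up 2.45% to 32.3% of host gene TPM in an EV library (median 5.64%) and 9.39% to 22.3% in a cell library (median 15%).

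SNHG14 and SNHG4, neither called as a gene, had different leading transcripts in EVs and in cells. SNHG14-212 (7844 nt) was at 24.0, 31.5 and 38.8 TPM in EVs (lowest, median and highest of 9) and at 1.2, 4.91 and 7.38 TPM in cells, without overlap. It made up 69.7% of the gene in EVs and 17.1% in cells, with a log2 fold change of 2.38 (SE 0.25, limma adjusted p = 9.94e-06). The leading transcript in cells, SNHG14-207 (1064 nt), was at 17.1 ± 8.78 TPM there and 11.5 ± 7.39 TPM in EVs (SD, n = 9 each; adjusted p = 0.125). SNHG4-205 (575 nt) was at 33.2 ± 16.7 TPM in EVs and 2.86 ± 5.29 TPM in cells (SD, n = 9 each), or 77.8% and 6.92% of the gene. Its log2 fold change was 3.64 (SE 0.65, adjusted p = 0.000837). SNHG4-203, which led in cells, was lower in EVs (-2.80, SE 0.70, adjusted p = 0.00773). SNHG4-201 was at 10.2 ± 5.32 TPM in cells (SD, n = 9) and above 0 in 1 EV library, at 6.15 TPM; it passed the filter through cells alone, which fixes its direction. A level of 1 transcript among overlapping ones is an estimate that shares reads with the others. Of SNHG4-205, 43.5% is also exon of MATR3 on the same strand, as are 68.7% of SNHG4-203 and 46.3% of SNHG4-201.

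Among the other transcripts, SNHG16-202 (2424 nt) led SNHG16 in both compartments, at 24.9 ± 9.33 TPM in EVs and 7.8 ± 0.942 TPM in cells (SD, n = 9 each; log2 fold change 1.30, SE 0.30, limma adjusted p = 0.0043). SNHG17-204 (517 nt) reached 12.9 TPM in EVs, was above 0 in 6 of 9 EV libraries and was listed at 0 in all 9 cell libraries. SNHG20-201, whose exons hold SCARNA16, was at 3 ± 4.35 TPM in EVs and 7.61 ± 2.62 TPM in cells (SD, n = 9 each; -1.67, SE 0.44, adjusted p = 0.00967). SNHG12-201, a retained-intron transcript that holds SNORA61 and SNORA44, was at 0.705 ± 1.3 TPM in EVs and 3.63 ± 2.22 TPM in cells (SD, n = 9 each). ZFAS1-204 was above 0 in 4 EV libraries, up to 29.6 TPM, and in 1 cell library, at 1.95 TPM. SNHG17-204 and ZFAS1-204 passed the filter through EVs alone and SNHG12-201 through cells alone, which fixes their direction.

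**Figure D3:**
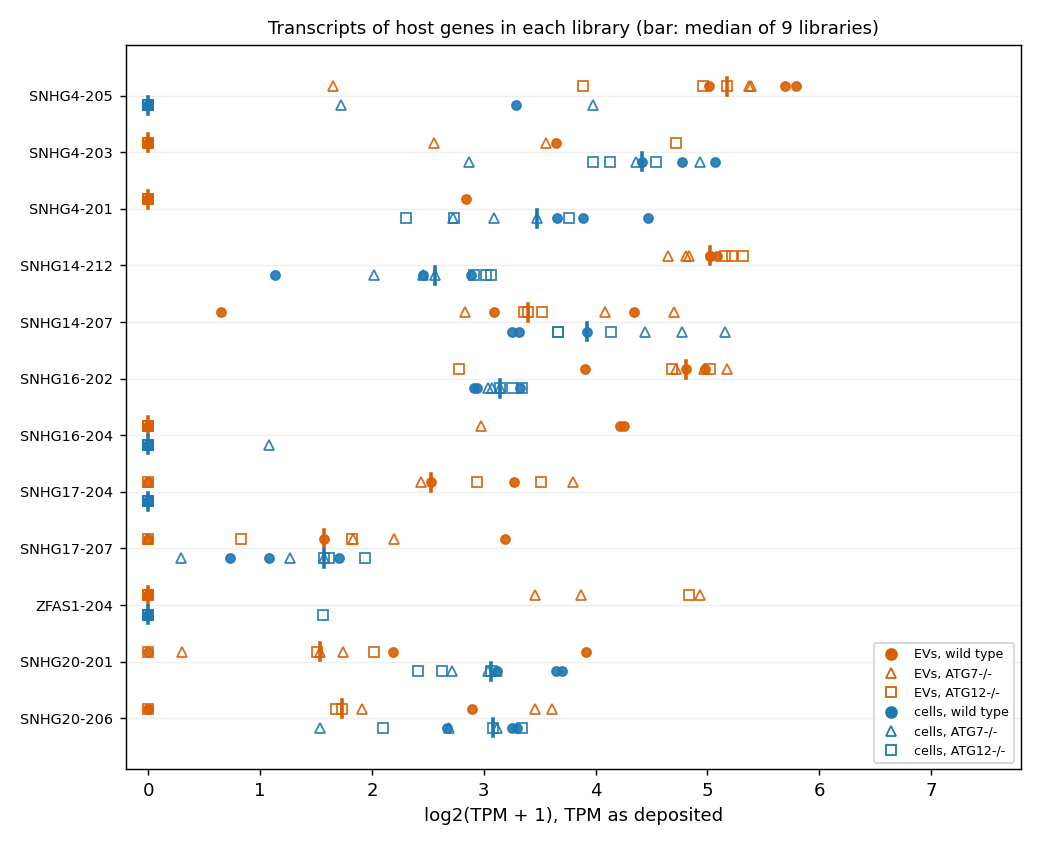
Level of 12 transcripts of 6 host genes as log2(TPM + 1) on the horizontal axis, with 1 marker per library (orange for EVs, blue for cells, shape by genotype) and a bar at the median of 9 libraries. SNHG14-212 lies higher in every EV library than in any cell library, and SNHG17-204 is at 0 in all 9 cell libraries.

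The snoRNAs themselves were thinly covered in these large-RNA libraries. Of 136 snoRNA and scaRNA genes inside the host genes, 126 were in the table and 21 were above 0 in any library, 7 of them in EVs and 20 in cells. Box C/D snoRNAs were above 0 for 3 of 92 in the table, and box H/ACA snoRNAs for 13 of 22. SNHG14 alone held 74 of the 126 in the table, nearly all of them box C/D, and 1 of these was above 0. The reason for the difference between the classes was not tested. SNORA78, inside SNHG9, was above 0 in 5 EV and 8 cell libraries, with medians of 69.6 and 610 TPM (log2 fold change -3.89, SE 1.75, limma adjusted p = 0.0828). SNORA24, inside SNHG8, was above 0 in 3 EV libraries, up to 1263 TPM, and in 2 cell libraries, up to 173 TPM (1.76, SE 1.64, adjusted p = 0.4). GENCODE 29 lists no snoRNA in the span of GAS5, so its snoRNAs were not analysed here.

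Several host genes lie opposite another gene, and reads from the 2 strands can be told apart only if the counting used strand. The kit marks strand, per the labels' protocols, while the strand setting of the counting was not given in the sources used here. The antisense gene AC006064.4, read beside GAPDH for this reason, was at 11737 ± 610 TPM in EVs and 3488 ± 505 TPM in cells. GAPDH itself was at 568 ± 110 and 84.7 ± 23.9 TPM (SD, n = 9 each). Whether reads were given to the right strand was not tested, for these genes or for the host genes. AC015802.6, opposite 30.6% of SNHG16's exonic bases, was at 105 ± 13.6 TPM in EVs and 60.4 ± 6.19 TPM in cells (SD, n = 9 each; log2 fold change 0.49, SE 0.12, limma adjusted p = 0.00568), a smaller difference in the same direction as that of SNHG16. It lies opposite 67.4% of SNHG16-202, the transcript with 70.6% of the gene's TPM in EVs and 78.3% in cells. FAM69B, opposite 25.2% of SNHG7, was at 26 ± 8.81 and 7.16 ± 3.03 TPM (1.46, SE 0.24, adjusted p = 0.000303), and lies opposite 46.4% of the leading transcript SNHG7-201. In the opposite direction to ZFAS1, ZNFX1 (opposite 11.1% of ZFAS1) was at 15.2 ± 11.2 TPM in EVs and 31.1 ± 6.39 TPM in cells (-1.55, SE 0.36, adjusted p = 0.00321). EPB41L4A, opposite 49.6% of EPB41L4A-AS1, was at 14.3 ± 13.1 and 43 ± 14.8 TPM (-2.17, SE 0.36, adjusted p = 0.000267). GLRX5, opposite 20.1% of SNHG10, was at 40.9 ± 16.8 and 47.9 ± 7.47 TPM (adjusted p = 0.0877). On the same strand as SNHG20 and sharing exon bases with it, SEC14L1 was higher in EVs, at 21.2 ± 15.1 against 6.29 ± 3.62 TPM (1.21, SE 0.38, adjusted p = 0.0176), where SNHG20 was lower. The part of these genes' reads in the host gene values was not tested.

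**Figure D4:**
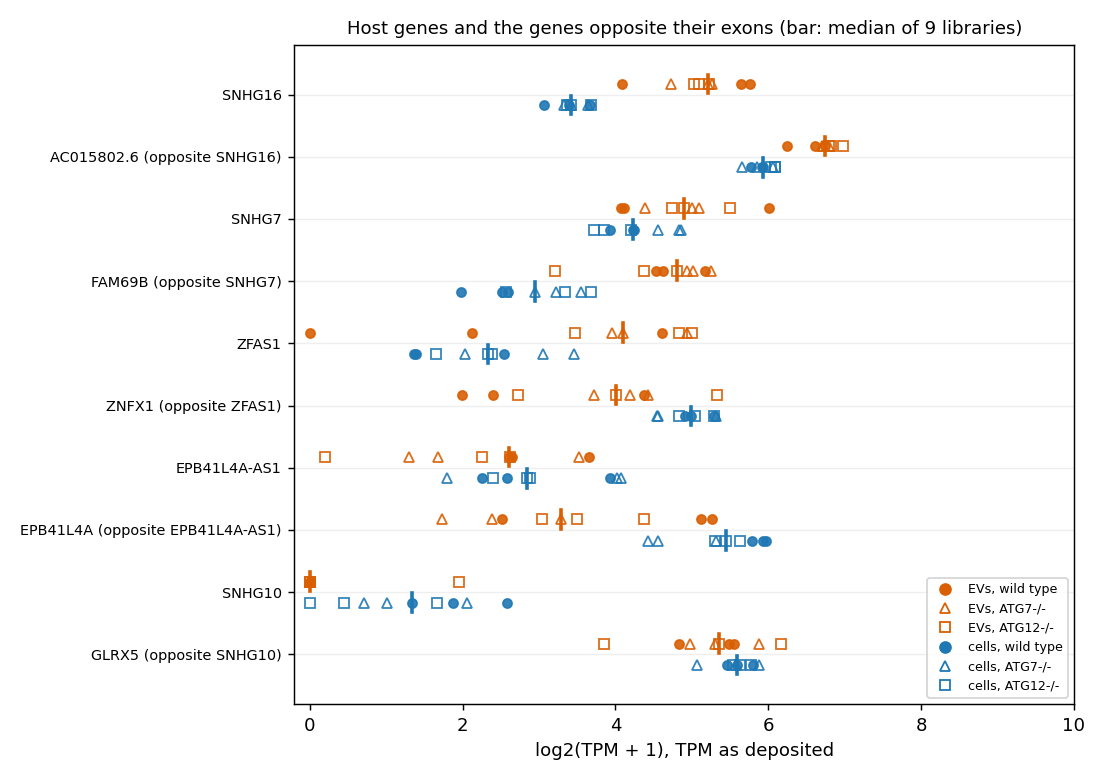
Level of 5 host genes and of the gene opposite each, as log2(TPM + 1) on the horizontal axis, with 1 marker per library (orange for EVs, blue for cells, shape by genotype) and a bar at the median of 9 libraries. SNHG16 and AC015802.6 both lie higher in EVs, whereas ZNFX1 lies lower in EVs and ZFAS1 has the higher EV median.

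No host gene was called between a knockout and wild type, in EVs or in cells. Both knockouts were compared with the same wild-type libraries, so their values stand side by side and are not independent. By limma 0 of 17 members were called in ATG7-/- EVs (0.141% of all 17076 genes were), 0 of 17 in ATG12-/- EVs (0.105%), 0 of 18 in ATG7-/- cells (0.2% of 22471) and 0 of 18 in ATG12-/- cells (0.134%). At an unadjusted p under 0.05 there were 2 of 17 in ATG7-/- EVs (7.41% of all genes), 0 of 17 in ATG12-/- EVs (7.94%), 5 of 18 in ATG7-/- cells (14.4%) and 1 of 18 in ATG12-/- cells (15%). The groups of 3 did not overlap for 4 of 17 members in ATG7-/- EVs (23.5%, beside 13.9% of all genes), 0 of 17 in ATG12-/- EVs (11.3%), 6 of 18 in ATG7-/- cells (33.3%, beside 19.9%) and 2 of 18 in ATG12-/- cells (11.1%, beside 23.6%). The members' median log2 fold change was -0.04 in ATG12-/- EVs, -0.01 in ATG7-/- cells and -0.07 in ATG12-/- cells, where that of all genes was -0.08, -0.07 and -0.07.

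In ATG7-/- EVs, the smallest p belonged to SNHG5 and SNHG8. SNHG5, at 50.1, 46.4 and 104 TPM against 13.9, 0 and 8.26 TPM in wild-type EVs, had a log2 fold change of 3.67 (SE 1.18, limma adjusted p = 0.493). In ATG12-/- EVs, at 11.2, 0 and 8.61 TPM, its values overlapped those of wild type. SNHG8, at 6.64, 4.22 and 0 TPM against 24.8, 8.24 and 78.7 TPM, had a log2 fold change of -2.88 (SE 1.01, adjusted p = 0.553). Without transcripts that hold a snoRNA it was -1.35 (SE 1.44, adjusted p = 0.894). The 24.8 TPM in wild-type EV replicate 1 was all SNHG8-204, whose exons hold SNORA24. SNHG12 and SNHG4 were the other members whose ATG7-/- EV libraries all lay below the wild-type ones (-1.64, SE 0.97, and -0.67, SE 0.54; adjusted p 0.752 and 0.836). ZFAS1 had the smallest p in ATG12-/- EVs, at 10.1, 27.6 and 31.1 TPM against 0, 3.37 and 23.4 TPM (2.23, SE 1.03, adjusted p = 0.639), and in ATG7-/- EVs it was at 14.5, 16.2 and 29.6 TPM (2.14, SE 1.03, adjusted p = 0.686). The ZFAS1 groups overlapped in both comparisons.

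In ATG7-/- cells, SNHG7 was at 27.4, 28.0 and 22.5 TPM against 18, 14.2 and 17.7 TPM in wild type (0.68, SE 0.21, limma adjusted p = 0.221), and SNHG14 at 32.1, 33.7 and 45.7 TPM against 29.4, 20.7 and 27.8 TPM (0.57, SE 0.21, adjusted p = 0.291). All 3 knockout libraries lay above wild type for both. SNHG4, at 29.4, 39.6 and 26.6 TPM against 53.9, 66.9 and 44.5 TPM, had a log2 fold change of -0.70 (SE 0.29, adjusted p = 0.321) without overlap. SNHG20 and SNHG17 also lay below wild type without overlap, and SNHG6, listed at 0 in wild type, lay above it. In ATG12-/- cells the members without overlap were SNHG17, at 4.01, 6.77 and 7.63 TPM against 3.04, 3.53 and 3.42 TPM (0.71, SE 0.28, adjusted p = 0.297), and SNHG20, at 15.8, 8.77 and 14.3 TPM against 21.4, 16.2 and 18.5 TPM (-0.50, SE 0.32, adjusted p = 0.502). SNHG17 thus lay above wild type in ATG12-/- cells and below it in ATG7-/- cells. SNHG16, the member with the clearest difference between EVs and cells, was at 10.1 ± 1.27 TPM in ATG7-/- cells, 10.3 ± 1.31 TPM in ATG12-/- cells and 9.53 ± 2.18 TPM in wild-type cells (SD, n = 3 each).

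**Figure D5:**
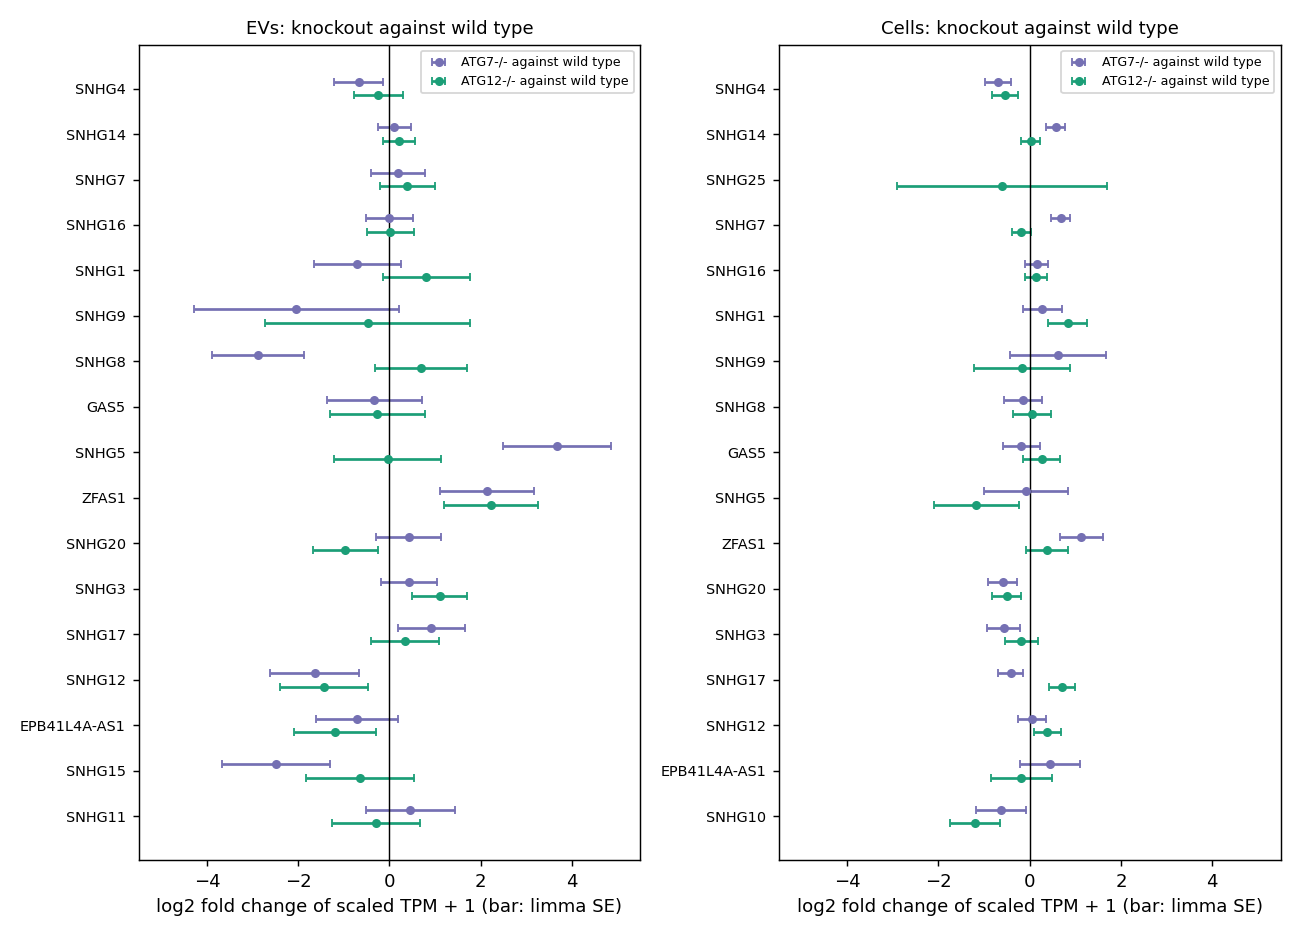
Log2 fold change of each knockout against wild type with limma's standard error, for the host genes that passed the filter in EVs (left) and in cells (right); a gene is not drawn where 1 of the groups is listed at 0 throughout. SNHG5 in ATG7-/- EVs (3.67) and SNHG8 in ATG7-/- EVs (-2.88) lie farthest from 0, and no gene drawn passed the adjusted threshold.

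The EV-to-cell difference itself was tested between genotypes. For 0 of 21 members did it differ between ATG7-/- and wild type by limma (0.284% of all genes were called), with 2 at an unadjusted p under 0.05 (8.91% of all genes). Between ATG12-/- and wild type the counts were 0 of 21 (0.268%) and 2 (10.1%). The smallest adjusted p was 0.44 (SNHG6) and 0.459 (SNHG5, an interaction of 3.91 on the log2 scale, SE 1.56) for ATG7-/-. For ATG12-/- it was 0.41 (SNHG10) and 0.442 (SNHG3, 1.55, SE 0.65). SNHG6 was listed at 0 in all 9 EV libraries and in all wild-type cell libraries, so its interaction rests on the ATG7-/- cells alone. SNHG10 was listed at 0 in 8 of the 9 EV libraries.

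The RNAs of proteins that act on snoRNAs and on host RNAs were read from lists of known factors, beside the 7.66% higher, 36.4% lower and median log2 fold change of -0.61 of all genes. Of the box C/D snoRNP core, 3 of 4 were higher in EVs and 0 lower (median log2 fold change 1.27): FBL, the methyltransferase, at 310 ± 61.1 against 63.2 ± 33.1 TPM (2.11, SE 0.20, limma adjusted p = 2.57e-06), SNU13 (1.45, SE 0.19) and NOP56 (1.09, SE 0.24). The H/ACA core had 1 of 3 higher and 0 lower (median 0.95), DKC1, the pseudouridine synthase, at 24.3 ± 10.9 against 7.65 ± 3.38 TPM (1.21, SE 0.34, adjusted p = 0.00964). Of 12 snoRNP assembly factors 0 were higher and 2 lower (median -0.35), ZNHIT3 (-1.08, SE 0.30, adjusted p = 0.00982) and NAF1 (-0.81, SE 0.30, adjusted p = 0.0398). Regulators of pyrimidine-start mRNAs had 2 of 12 higher (CNBP and TIAL1) and 0 lower, with a median of 0.45.

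Other genes with a snoRNA in their span were counted by coding type. Of 241 protein-coding hosts outside the SNHG group, 64 (26.6%) were higher in EVs and 43 (17.8%) lower, with a median log2 fold change of 0.24; RPL39, RACK1 and the elongation factor EEF2 had the smallest p among them (2.93, SE 0.14; 2.21, SE 0.11; 1.89, SE 0.09). Of the 43 lower ones, 12 had passed the filter through cells alone, and 2 of the 64 higher ones through EVs alone, which fixes their direction. Among the 213 protein-coding hosts that passed in both compartments, 62 were higher and 31 lower. Of all 15893 genes that passed in both, 10.7% were higher and 30% lower. Of 32 other noncoding hosts, 1 (3.12%) was higher and 20 (62.5%) lower, with a median of -1.11, beside 7.66% higher, 36.4% lower and a median of -0.61 for all genes. Of the 20 lower ones, 7 had passed the filter through cells alone, which fixes that direction. Of the 21 noncoding hosts that passed in both compartments, 1 was higher and 13 lower, beside the same 10.7% and 30% of all genes. The SNHG group had a median of 0.26, with 14.3% higher and 23.8% lower. Like those of the other sets, this median includes genes that passed the filter through 1 compartment alone. Differences between the sets were not tested. In the knockout and interaction comparisons 0 members of any of these lists were called by limma, apart from OSCP1, 1 of 227 protein-coding hosts, which was lower in ATG7-/- cells (-3.43, SE 0.40, adjusted p = 0.0186).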

How the data were processed

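The authors deposited 1 table of TPM values for 203027 transcripts in 18 libraries. Salmon 0.14 and DESeq2 appear in the submitters' processing notes without a role. The build, annotation and strand setting were not given in the sources used here. This unit holds no depth, so no count test or counting interval was possible. Transcripts were matched by identifier to GENCODE 29 (GRCh38), which missed 86, holding at most 0.0384% of any library, and TPM were summed to 57865 genes; coordinates come from that annotation or, for start sites, from RefSeq.

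Scaling between libraries was by the median of ratios. Genes that reached 1 TPM in 3 or more fitted libraries were tested across all genes on log2(TPM + 1) with limma 3.58.1 (R 4.3.3) with a mean-variance trend, both-sided, with Benjamini-Hochberg adjustment and a threshold of 0.05. Knockouts were fitted within EVs and within cells (9 libraries each), EV-to-cell contrasts over all 18. A fold change on this scale understates that of low genes. The fit was tested on simulated data. TPM are printed as deposited.

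The host genes and lists were chosen with earlier results of these data known. Members called in any comparison, or among the 10 with the highest mean TPM, were named with every value; others by range. Further members were named after their values were seen. From lists, up to 3 called genes with the smallest p were named. The result of 1 list is not reported here. Alternatives covered scaling, pseudocount, filter, trend, replicate block, transcript classes, one fit of all libraries and each library left out; transcript tests were added later.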

Additional observations from a re-analysis of the deposited data

How the results depend on the processing

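In the knockout and interaction comparisons, 0 host genes were called in all 106 alternatives run. In EVs against cells the count of 8 was 6 with a filter of 5 TPM and with a pseudocount of 0.1, 7 with no filter, 9 without scaling, and 5 to 8 when 1 library was left out. SNHG16 and SNHG20 stayed called in all 27 alternatives. Of 526 single-gene values, 472 kept direction and side of the threshold, 44 lost the call, 2 gained it and 8 changed sign. The sign changes, all of genes not called, were GAS5 without wild-type EV replicate 2 (-0.30), ATG7-/- EV replicate 3 (-0.11), ATG12-/- EV replicate 3 (-0.05) or wild-type cell replicate 3 (-0.01), SNHG9 without ATG12-/- EV replicate 2 (-0.17), SNHG8 at a pseudocount of 0.1 (-0.08) and without transcripts that hold a snoRNA (-0.20), and SNHG4 without scaling (0.01); the cause was not tested. With 1 library left out, GAS5 ran from -0.30 to 0.43 and SNHG9 from -0.17 to 1.22. A filter of 5 TPM leaves SNHG6 and SNHG10 untested, and leaving out transcripts under 200 nt leaves SNHG25 untested.

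The labels do not say whether samples with the same number in different groups share a culture day. The correlations of their deviations from the group means were -0.041 to 0.047, which cannot exclude a pairing. With the replicate number as a block, 7 of 21 host genes were called between EVs and cells, SNHG1 losing its call (adjusted p = 0.0587 with limma), and 0 between knockouts and wild type. The unknown depth and the 3 libraries per group limit what can be seen for members at a few TPM.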
